A study of Mus musculus with 2 samples.

Results

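The genes described here are the mouse vomeronasal type 1 receptors, named Vmn1r, placed on the map of chromatin domain boundaries of immediate neuronal precursors. Members were the protein-coding gene models of GENCODE M21 on GRCm38 whose symbol starts with Vmn1r. There were 209 of them among 21755 protein-coding genes on the autosomes and chromosome X. They carry 208 symbols, because Vmn1r216 has 2 gene models, and the rule reads symbols alone.

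Immediate neuronal precursors are dividing cells of the olfactory epithelium that give rise to olfactory sensory neurons. They were sorted by fluorescence as primary cells from FVB/NTac pups of mixed sex carrying Ngn1-GFP, a reporter of the proneural gene Neurog1, with no treatment or further modification listed. In situ Hi-C joins ends of cut DNA that are neighbours in the nucleus, and was run with the enzyme DpnII after fixation in 1% formaldehyde on 2 biological replicates of 2200000 and 2100000 cells. The single list analysed holds 7841 boundaries, each a 5 kb interval that the authors classed as strong or weak and scored, called on the contacts of both replicates combined. The sorting protocol in the labels speaks of immature olfactory sensory neurons, whereas both samples are labelled as precursors. The labels place both replicates in 1 group, so no condition could be compared. Because the replicates were pooled before calling, no value has a replicate error, the depth is unknown, and all counts and medians are descriptions. Intervals of 95% cover counting error only and treat genes or boundaries as independent, although neighbouring Vmn1r genes share domains and boundaries. Markers of the cell type could not be checked, since expression was not analysed here.

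Vmn1r genes encode G protein-coupled receptors of the apical sensory neurons of the vomeronasal organ, where they detect small volatile and steroid-derived chemosignals. A mature vomeronasal neuron is generally held to express a single receptor gene from a single allele. The family is known for lineage-specific gene duplication, and most members lie in tandem arrays and most have their coding region in a single exon. The cells studied belong to the main olfactory epithelium, whose mature neurons mostly express odorant receptors (Olfr) instead, so this is a map of these arrays in cells outside the lineage best known for using them. A boundary is a position across which contacts are depleted, a domain is the sequence between neighbouring boundaries, and a higher score marks stronger insulation.

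Few Vmn1r genes started near a boundary. The transcription start site (TSS), taken as the 5′ end of the gene model, lay within 10 kb of a boundary in 5 of 209 members, or 2.39% (Wilson interval 1.03% to 5.48%). Over all protein-coding genes 16.4% did so. The median distance to the nearest boundary was 152 kb for Vmn1r genes (interval 124 to 191 kb, quartiles 74.4 and 321 kb) and 55.3 kb for all genes (quartiles 21.4 and 102 kb). Beyond 100 kb lay 134 members, or 64.1%, against 25.8% of all genes, and beyond 500 kb lay 41 members, or 19.6%, against 2.19% of all genes. The domain that held a member had a median size of 630 kb (quartiles 385 and 1535 kb, 205 members), against 275 kb for the domain of a protein-coding gene. Members therefore sat far from boundaries and in large domains, and they were not spread evenly over those domains.

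The other receptor families of the nose did not all share this placement. Among the 122 Vmn2r genes, the receptors of basal vomeronasal neurons, 4.92% started within 10 kb and the median distance was 163 kb, with a median domain of 660 kb. Among the 1135 Olfr genes, 7.31% did so, the median distance was 75.9 kb and the median domain was 365 kb. The share of genes within 25, 50, 100 and 200 kb rose from 9.09% to 18.2%, 35.9% and 60.8% for Vmn1r genes. For Vmn2r genes the same windows gave 10.7%, 17.2%, 35.2% and 57.4%. For Olfr genes they gave 16.7%, 33.7%, 62.3% and 90.9%. The Vmn1r and Vmn2r curves ran close together over most of this range, and the intervals of their medians overlapped (124 to 210 kb for Vmn2r), whereas that of Olfr genes (71.2 to 81.3 kb) lay below both.

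**Figure D1:**
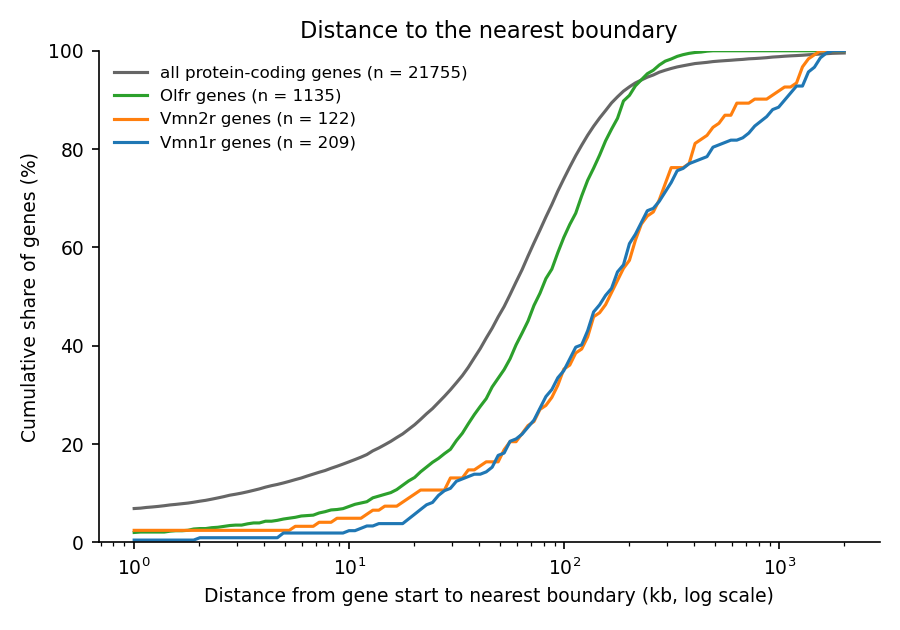
Cumulative share of genes (y axis, %) with a TSS no farther from the nearest boundary than the distance on the x axis (kb, log scale), for Vmn1r, Vmn2r, Olfr and all protein-coding genes. At 100 kb the Vmn1r line stands at 35.9% and the line of all genes at 74.2%; a TSS inside a boundary interval has distance 0 and is counted from the left edge of the plot.

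Repeated sequence moved with these distances, and its values are given here because contacts of repeated sequence cannot be placed uniquely. Uniqueness was measured as the percentage of sampled 50-base words found at a single place in the reference, and 5 kb bins under 50% were called mostly repeated. Such bins made up 7.28% of the genome but held the TSS of 60 members, or 28.7%, and 49 of these 60 lay in a single domain of chromosome 7. Among the 149 members in mostly unique bins, 5 started within 10 kb of a boundary, or 3.36%, against 17.15% of all genes in such bins. Their median distance was 111 kb (interval 90.6 to 131 kb) against 52.4 kb, and their median domain 560 kb against 270 kb. Among members whose TSS bin was mostly unique, the share was thus also lower and the distances longer, with a smaller gap in distance than over all members. The filter reads only the 5 kb bin of the TSS. Sequence between a TSS and its boundary can still be repeated, as for Vmn1r90, whose domain of 1485 kb was 44.3% unique. How much repeated sequence adds to these distances was not tested.

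Nearly all members lay in arrays. Runs of at least 5 Vmn1r genes with gaps of at most 500 kb numbered 10 and held 201 members, or 96.2%, leaving 8 outside. Chromosome 7 carried 103 members and 5 arrays, chromosome 6 carried 51 members and 3 arrays, and chromosomes 13 and 17 carried 1 array each, of 36 and 14 members. The median distance was 313 kb on chromosome 7, 86.3 kb on chromosome 6, 152 kb on chromosome 13 and 128 kb on chromosome 17. On chromosomes 6, 7 and 13 the share within 10 kb was 1.96%, 1.94% and 0%, where the share of all genes was 14.5%, 12.4% and 16.9%. On chromosome 17 it was 2 of 14, or 14.3%, next to 14.4% of all genes there, so the lower share was not seen on that chromosome.

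**Figure D2:**
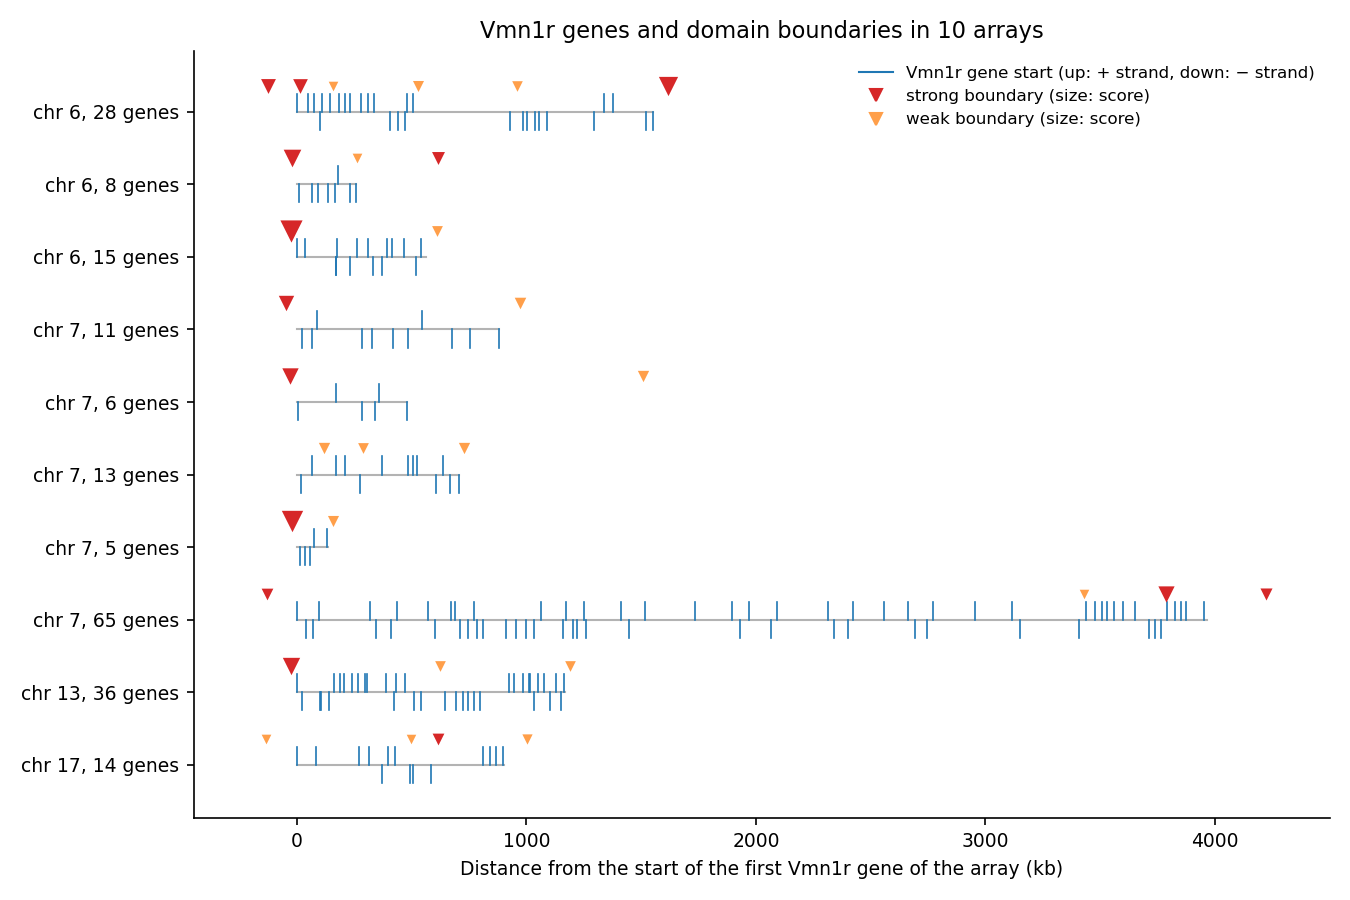
The 10 arrays to scale, with the distance from the start of the first member on the x axis (kb); ticks mark TSS (up for the + strand, down for the − strand) and triangles mark boundaries inside the array and at its edges, sized by score. The array of 65 genes on chromosome 7 has no boundary over its first 3400 kb; the left boundary of the array of 13 genes, 1419 kb away, falls outside the plot.

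Inside the arrays boundaries were few and mostly weak. In this list weak boundaries score from 0.2 and strong ones from 0.5. The 10 arrays, 10.6 Mb of assembled sequence, held 12 boundaries, or 1.13 per Mb, against 3.06 per Mb over all chromosomes. The 33 Olfr arrays held 2.93 per Mb and the 9 Vmn2r arrays 1.57 per Mb. Counted per Mb of mostly unique bins, the densities were 1.90 in Vmn1r arrays, 2.34 in Vmn2r arrays, 3.06 in Olfr arrays and 3.25 over all chromosomes, and each of the 12 boundaries lay in a mostly unique bin. Without chromosome 7 the density in Vmn1r arrays was 1.79 per Mb of assembled sequence, and in its array of 65 genes it was 0.510 per Mb. Of the 12, 3 were strong, or 25.0% (Wilson interval 8.89% to 53.2%), against a background of 52.8% of all boundaries. The share was similar inside Vmn2r arrays (27.8%) and Olfr arrays (29.2%). The median score inside Vmn1r arrays was 0.381, against 0.533 over the whole list. No boundary lay inside 4 of the 10 arrays, next to 3 of 9 Vmn2r arrays and 5 of 33 Olfr arrays. Those 4 Vmn1r arrays span 0.137 to 0.882 Mb, and array length was not adjusted for.

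At the edges of the arrays the scores were higher than inside them. The first boundary beyond each end was strong at 12 of 20 edges, with a median score of 0.631. Neighbouring arrays can share a boundary, so these edges correspond to 19 distinct boundaries, of which 11 were strong, or 57.9%, close to the 52.8% of the whole list. In 6 arrays one edge was strong and the other weak, in 3 both were strong and in 1 both were weak. Over all domains 49.955% had a border of each class, so 6 of 10 is near that share. The edge counts depend on 1 choice in the array Vmn1r32 to Vmn1r39. The weak boundary of 0.253 overlaps its last gene and was counted as inside. Its right edge was thus the next boundary, of score 0.696 and 354 kb away. The higher score stood at the edge of lower coordinate in 7 of 10 arrays, a count too small to set a direction. The first boundary came before the next coding gene at 8 of 20 edges. At the other edges the domain ran on past at least 1 gene of another kind.

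**Figure D3:**
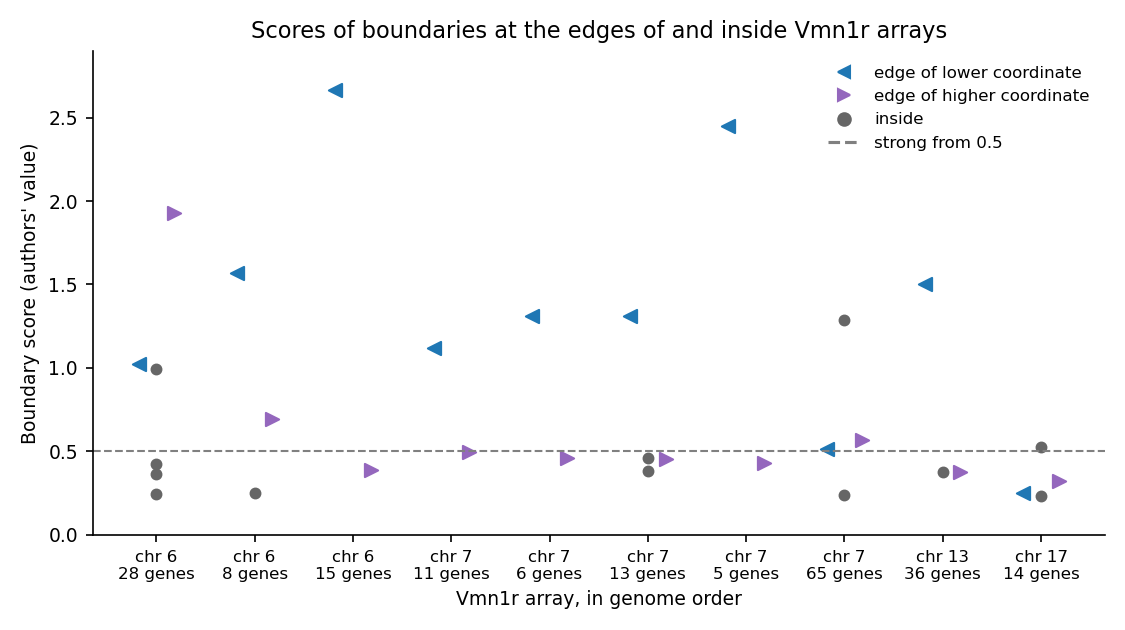
Score of the first boundary beyond each end of each array (triangles) and of the boundaries inside it (dots), with the arrays in genome order on the x axis and the authors' score on the y axis. The dashed line is the score of 0.5 from which the strong class begins; 9 of the 12 dots lie under it, and the highest edge scores are 2.67 and 2.45.

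The array of 15 genes on chromosome 6, from Vmn1r40 to Vmn1r54 (chr6:89707540-90271213), had no boundary inside. All 15 members lay in a single domain of 630 kb. The left border scored 2.67, higher than 99.9% of the list, and stood 22.5 kb before Vmn1r40, with the next coding gene, Txnrd3, 63.6 kb away. The right border scored 0.391 and overlapped an exon of Chst13, a carbohydrate sulfotransferase. The closest relative by coding sequence lay in the same domain for 14 of the 15. The array of 5 genes on chromosome 7, Vmn1r85 to Vmn1r89 (chr7:13083313-13220657), also had no inner boundary. On both of its sides the first boundary came before the next coding gene. Its left border scored 2.45 and lay within 10 kb of Mzf1, a zinc finger gene, its right border scored 0.431, and all 5 members shared 1 domain of 175 kb.

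Vmn1r55 to Vmn1r65 on chromosome 7 (chr7:5129291-6011010), 11 genes, also had no inner boundary and shared a domain of 1015 kb. Its borders scored 1.12, at an exon of Epn1, an endocytic adaptor gene, and 0.495, at an exon of Nlrp4c. The domain also held 6 coding genes outside the family. Vmn1r66 to Vmn1r71 (chr7:10272991-10754364), 6 genes, lay in a domain of 1535 kb whose left border scored 1.31, 28.0 kb before the array. The right border of that domain was 1026 kb beyond Vmn1r71 and fell inside the next array, Vmn1r72 to Vmn1r84 (chr7:11664479-12369273). Members of both arrays, 8 in all, thus shared a domain. Of the 13 genes of the second array, the boundaries of score 0.462 and 0.384 separated Vmn1r73 from Vmn1r74 and Vmn1r76 from Vmn1r77, which left 3 genes in a domain of 165 kb and 8 in 1 of 435 kb. Vmn1r76 started 11.8 kb from the second of these, just outside the window of 10 kb.

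The array of 28 genes on chromosome 6, Vmn1r4 to Vmn1r31 (chr6:56924015-58475330), was the most divided. Its 4 inner boundaries made 5 domains of 1, 5, 11, 1 and 10 members. The strongest, of score 0.996, lay in an intron of Vmn1r4, 11.0 kb from its TSS, and set Vmn1r4 apart from Vmn1r5. The others, of score 0.243, 0.423 and 0.365, lay between Vmn1r9 and Vmn1r10, Vmn1r20 and Vmn1r21, and Vmn1r21 and Vmn1r22. Vmn1r21 stood alone with 5 genes of other families, Ppm1k, Herc6, Pyurf, Lancl2 and Vopp1, in a domain of 425 kb. Vmn1r9 and Vmn1r10 lay on opposite sides of the 0.243 boundary and were each other's neighbours in sequence as well as in position, with 94.5% coding identity. The array's edges scored 1.02, at an exon of Kbtbd2, and 1.93. The closest relative lay in the same array for 26 of 28 members and in the same domain for 12.

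The smaller array of chromosome 6, Vmn1r32 to Vmn1r39 (chr6:66552180-66810609), ended on a boundary. The TSS of Vmn1r39, its last gene, lay inside the interval chr6:66810001-66815000, of score 0.253, and was the only member TSS inside a boundary. The other 7 members shared the domain of 275 kb before it. Its left border scored 1.57 and lay within 10 kb of Mad2l1, a spindle checkpoint gene. The boundary beyond it scored 0.696 and was 354 kb away.

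The chromosome 13 array, Vmn1r188 to Vmn1r223 (chr13:22084440-23253906), was cut evenly. Its 1 inner boundary, of score 0.378, lay between Vmn1r206 and Vmn1r207-ps and left 18 gene models on each side, in domains of 645 and 560 kb. All 36 members had their closest relative in the array, but 17 had it in their own domain. Among these 17 are the 2 gene models of Vmn1r216, which were matched to each other at 100%. The array also held 31 annotated Vmn1r pseudogenes, the most of any array, and no coding gene of another kind. The left edge scored 1.51, on the side of a histone gene cluster (Hist1h2bj), and the right edge 0.375.

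The chromosome 17 array, Vmn1r224 to Vmn1r237 (chr17:20414146-21314912), was the only array with both edges weak, at 0.252 and 0.324. The array was shared with Vmn2r108, Vmn2r109 and Vmn2r110, the formyl peptide receptor gene Fpr-rs3, the phosphatase subunit gene Ppp2r1a and the zinc finger gene Zfp160. Boundaries of score 0.236 and 0.525, the second at an exon of Zfp160, lay between Vmn1r231 and Vmn1r232 and between Vmn1r233 and Vmn1r234, and split the 14 members into 8, 2 and 4. Its members were the least alike, with a median coding identity of 73.7% to the closest relative. None had a relative of 95% identity or more, which also held for the arrays Vmn1r66 to Vmn1r71 and Vmn1r85 to Vmn1r89.

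The largest array lay on chromosome 7, from Vmn1r91 to Vmn1r183 (chr7:20099680-24063554), with 65 members over 3.96 Mb. Its 2 inner boundaries made 3 domains of 50, 10 and 5 members. The first of these, chr7:19970001-23525000, was 3555 kb long and was number 3 in size among all 7821 domains between neighbouring boundaries. Of its 50 members 40 lay beyond 500 kb from a boundary, with a median of 928 kb, and all but 1 of the 41 members beyond that distance were here. The 5 farthest members of the family were Vmn1r135 at 1693 kb, Vmn1r132 at 1644 kb, Vmn1r131 at 1576 kb, Vmn1r130 at 1542 kb and Vmn1r137 at 1530 kb. Its left border, at an exon of Ceacam20, was strong with a score of 0.516, close to the median of the list, and its right border, between Vmn1r167 and Vmn1r168, was weak at 0.237.

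That domain was also the least unique sequence of any that held a member. Of its sampled 50-base words 11.2% occurred once in the reference, against 88.7% genome-wide, and 92.0% of its bins were mostly repeated. It held 38 further coding genes, of which 24 matched a Vmn1r coding sequence at 70% identity or more. Over the genome 26 such receptor-like genes bore another name, with 89.8% to 100% identity to the closest member. Of these, 0 started within 10 kb of a boundary, against 16.4% of all genes. With 24 of the 26 in this domain, that count mostly follows from the domain and is not a result about them. Members and receptor-like genes of the domain numbered 74 but had 54 distinct coding sequences, and 38 of the 74 had an identical coding copy elsewhere in the domain. Of the 22 identical pairs on the same strand, 11 were 1989 to 1996 kb apart, among them Vmn1r100 and Vmn1r148 and Vmn1r107 and Vmn1r155. The 5 farthest members each had an identical coding copy in the domain, such as Vmn1r163 for Vmn1r135. In the bins within 10 kb of their starts, 0% to 0.313% of the 50-base words were unique. How far the absence of boundaries here follows from contacts that could not be placed was not tested.

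The copies extended upstream of the genes. The 150 bases before the TSS were identical to those of another member for 36 of the 50 members of this domain, but for 4 of the 158 other members examined. Of those 4, Vmn1r42 and Vmn1r43 share a TSS and so the same bases, which leaves the pair Vmn1r173 and Vmn1r174 as copies. Median identity to the closest member over these bases was 100% in the domain and 61.7% elsewhere. Closest windows on another chromosome scored 49.3% for Vmn1r191 with Vmn1r21 and 60.7% for Vmn1r1 with Vmn1r47. Values of that order are therefore not read as copies. The medians also compare windows at unlike places. Most gene models of the domain begin at the coding start, which over all members lay a median of 2.74 kb from the TSS. The model of Vmn1r139 begins farther upstream. Its window had 50% identity to the closest, although its coding sequence is identical to that of Vmn1r132. Vmn1r93 and Vmn1r114, whose starts are 673 kb apart and whose coding sequences share 99.7% of bases, show identical windows at the level of letters. Their upstream windows, at chr7:20139089-20139238 and chr7:20812187-20812336, both on the − strand of GRCm38, had 0 differences. They are printed 5′ to 3′ and end 1 base before the TSS.

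Vmn1r93: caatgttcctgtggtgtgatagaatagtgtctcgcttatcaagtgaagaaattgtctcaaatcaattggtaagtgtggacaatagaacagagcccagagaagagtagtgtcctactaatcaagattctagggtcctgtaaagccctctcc
Vmn1r114: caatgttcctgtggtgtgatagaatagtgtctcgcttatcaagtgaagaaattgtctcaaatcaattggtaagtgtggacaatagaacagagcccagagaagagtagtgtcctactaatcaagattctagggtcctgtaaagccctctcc

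By sequence, no read that falls within such a window can be assigned to 1 of the pair. The same holds for the coding regions of identical copies.

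**Figure D4:**
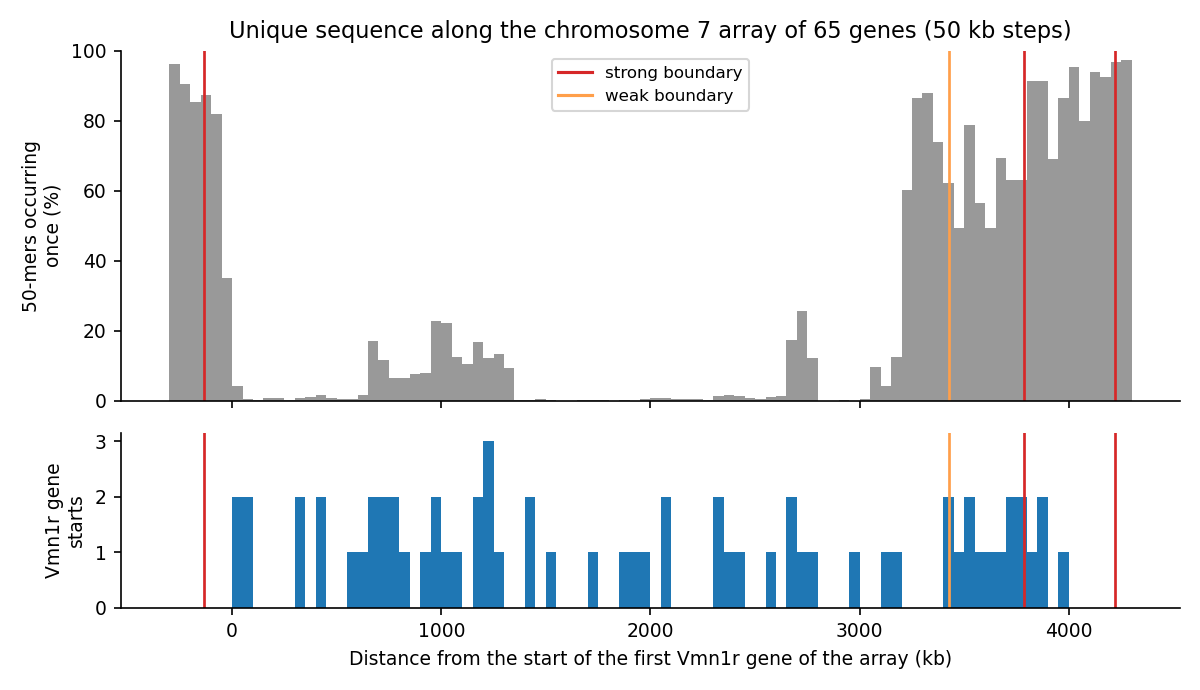
Share of sampled 50-base words that occur once in the reference (upper panel, %) and number of member starts (lower panel) in steps of 50 kb along the array of 65 genes; the x axis is the distance from its first member (kb) and vertical lines are boundaries. Every step between 0 and 3200 kb is at most 25.5% unique with no boundary, and both inner boundaries lie beyond it, where the steps up to 4000 kb hold 49.3% to 91.4%.

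The other domains of this array followed where the sequence became more unique. Vmn1r168 to Vmn1r177, 10 genes, filled a domain of 355 kb at chr7:23530001-23885000 in which 60.5% of the sampled words were unique. Its borders were the weak boundary of 0.237 and a boundary of 1.29, the strongest inside any Vmn1r array. Of its 10 genes, 6 formed nested pairs from the borders inwards. Vmn1r168, 9.73 kb from the left border, was most like Vmn1r177, 18.6 kb from the right border, with 98.6% coding identity. Vmn1r169, 45.5 kb from the left, was most like Vmn1r176, 47.6 kb from the right, with 96.8%. Vmn1r170, 76.2 kb from the left, was most like Vmn1r175, 74.4 kb from the right, with 98.1%. In each of these pairs the left gene was on the + strand and the right gene on the − strand, so the copies face each other within the domain. The 4 genes in the middle, Vmn1r171 to Vmn1r174, were all on the + strand and did not pair in this way. Vmn1r172 and Vmn1r174 were each other's closest relatives at 98.3%, and Vmn1r173 was most like Vmn1r172 at 97.6%. Vmn1r171 was most like Vmn1r167, across the 0.237 boundary, at 95.5%. The last domain, of 430 kb, held Vmn1r178 to Vmn1r183, 5 members, with 11 coding genes of other names.

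The 5 members within 10 kb of a boundary came from 3 arrays. Vmn1r39 was inside the 0.253 interval. Vmn1r178 started 2.01 kb from the 1.29 boundary and was the only member near a strong one. Vmn1r232 and Vmn1r231 started 4.71 and 4.91 kb from the same boundary of score 0.236, chr17:20910001-20915000, on either side of it, and Vmn1r168 started 9.73 kb from the 0.237 boundary. Next in order were Vmn1r4 at 11.0 kb, Vmn1r76 at 11.8 kb and Vmn1r9 at 13.2 kb. With 4 of the 5 at boundaries of score 0.253 or less, near the lower end of the list at 0.2, the few close placements rested mostly on weak calls.

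Vmn1r231 and Vmn1r232 are shown because they are the only members to start within 10 kb on both sides of a single boundary. Both are read from the − strand, and the interval overlaps an exon of Vmn1r232. Their windows of 150 bases on GRCm38 lay at chr17:20905092-20905241 and chr17:20919715-20919864, and their closest relatives by coding sequence, Vmn1r224 and Vmn1r228, were other members of the array.

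Vmn1r231: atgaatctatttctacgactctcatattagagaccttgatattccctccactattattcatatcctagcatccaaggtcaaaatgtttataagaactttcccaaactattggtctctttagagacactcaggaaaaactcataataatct
Vmn1r232: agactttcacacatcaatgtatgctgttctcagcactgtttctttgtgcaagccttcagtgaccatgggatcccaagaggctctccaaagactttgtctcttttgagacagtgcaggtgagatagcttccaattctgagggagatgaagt

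Base composition differed between the pair, with 33.3% G and C before Vmn1r231 and 45.3% before Vmn1r232.

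Vmn1r168 and Vmn1r178 are the members next to the inner boundaries of the largest array. Each is the first gene after its boundary and is read away from it on the + strand, while the last gene before it, Vmn1r167 or Vmn1r177, is read from the − strand. Both boundaries thus lay between genes that point away from each other. The windows lay at chr7:23539582-23539731 and chr7:23891859-23892008, and capitals mark the longest run of letters that both share.

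Vmn1r168: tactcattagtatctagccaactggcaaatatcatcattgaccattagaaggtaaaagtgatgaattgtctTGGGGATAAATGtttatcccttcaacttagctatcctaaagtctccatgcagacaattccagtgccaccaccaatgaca
Vmn1r178: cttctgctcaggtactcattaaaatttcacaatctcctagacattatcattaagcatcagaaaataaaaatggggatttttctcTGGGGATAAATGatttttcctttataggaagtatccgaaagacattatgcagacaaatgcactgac

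The run TGGGGATAAATG began 79 bases before the TSS of Vmn1r168 and 66 bases before that of Vmn1r178. Searched on both strands of the 150 bases before each gene, it occurred for 8 of 21242 protein-coding genes, or 0.0377%, and all 8 were members of this array. They were Vmn1r91 and Vmn1r167 in the first domain, Vmn1r168, Vmn1r171 and Vmn1r175 in the second and Vmn1r178, Vmn1r179 and Vmn1r183 in the third. The run was picked after these sequences were seen, so it is a description of shared letters in genes of all 3 domains and not of a binding site.

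Closest relatives mostly stayed within an array but often lay across a boundary. Over all members the median coding identity to the closest relative was 93.1%, and 89 members, or 42.6%, had a relative of at least 95%. The relative was in the same array for 195 of 201 array members. In all these counts, the 2 gene models of Vmn1r216 stand as each other's closest relative. In arrays of several domains, 107 of 156 members, or 68.6%, had it in their own domain and 45, or 28.8%, in another domain of the array. The first share rested on the largest array, which gave 63 of the 107 from 65 members. In the other arrays of several domains the counts were 12 of 28, 7 of 13, 17 of 36 and 8 of 14. Of 191 pairs of neighbouring members in arrays, 11 had a boundary between their starts and 179 lay in 1 domain. The remaining pair, Vmn1r38 and Vmn1r39, was left out because the boundary interval holds the TSS of Vmn1r39. Those 11 gaps had a median length of 57.7 kb (14.6 to 421 kb), against 33.2 kb (quartiles 24.8 and 57.6 kb) for the 179 gaps within a domain. The neighbours had a median identity of 79.9% across a boundary and 84.4% within a domain, and were on the same strand in 6 of 11 and 106 of 179 cases. The longer gaps were not adjusted for.

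Domains that held members were few, and members were concentrated in them. The family occupied 27 domains, and the 5 fullest held 112 members, or 53.6%. The 8 domains with at least 10 members held 143, or 68.4%. Of the 25 that were closed on both sides, 18 were at least as large as the median of all domains, 260 kb. Both borders were strong in 2 of these 25, or 8%, against 27.7% of all domains. Both were weak in 7, or 28%, against 22.3%, and 16, or 64%, had a border of each class, against 49.95%.

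**Figure D5:**
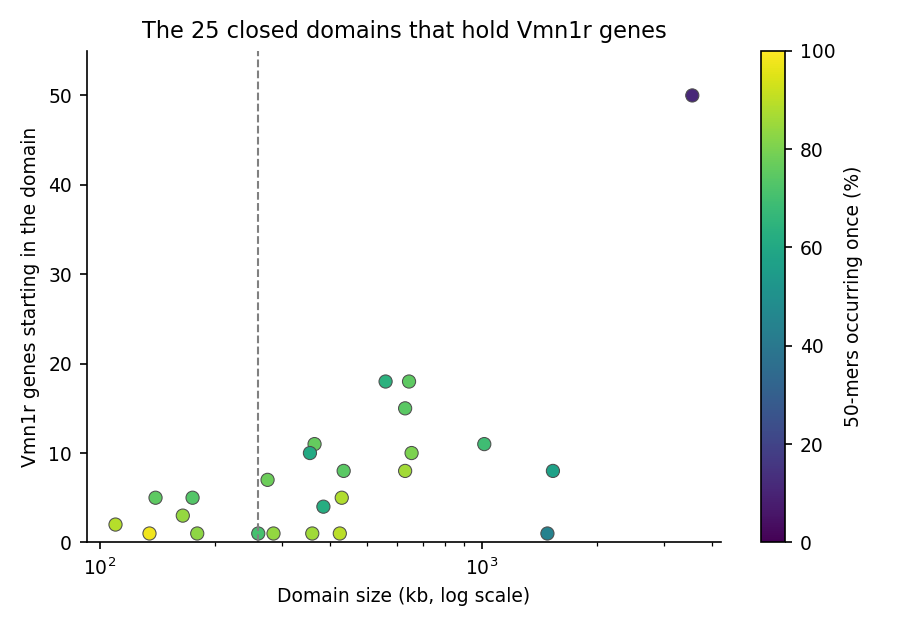
Each point is 1 of the 25 closed domains that hold a member, with its size on the x axis (kb, log scale), the number of members that start in it on the y axis and its share of unique 50-base words as colour. The dashed line is the median size of all domains, 260 kb; the domain of 50 members, at 3555 kb and 11.2% unique, stands apart, and the next fullest hold 18 each.

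None of the 8 members outside arrays started within 10 kb of a boundary. Vmn1r1 on chromosome 1 lay 19.5 kb from a boundary of score 0.937. Vmn1r185, Vmn1r184 and Vmn1r90 on chromosome 7 lay 91.5, 100.3 and 144 kb away. Vmn1r239-ps on chromosome X, annotated as coding despite its symbol, lay 176 kb away. Vmn1r2 and Vmn1r3 on chromosome 4 (338 and 320 kb) and Vmn1r238 on chromosome 18 (112 kb) lay before the first boundary of their chromosome, next to unassembled sequence, so their domain has no measured size.

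The binding motif of CTCF, the factor found at many mammalian boundaries, was searched as exact matches to its 12-base consensus on both strands. A match lay in 0 of the 12 boundaries inside arrays and in 2 of the 19 at their edges, against 6.9% of all boundaries and 2.405% of all 5 kb bins. These counts are too small to set an order between edges, inside and background. Matches were sparser along the arrays as a whole, at 1.79 per Mb in Vmn1r arrays, 1.31 in Vmn2r arrays, 2.43 in Olfr arrays and 4.97 over all chromosomes. The 2 edge matches stand in a strong and a weak border, before Vmn1r40 on chromosome 6 (score 2.67, chr6:89680375-89680386, + strand) and after Vmn1r223 on chromosome 13 (score 0.375, chr13:23274422-23274433, + strand). Capitals mark the match, with 9 bases on each side.

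Border before Vmn1r40: ctccttgctCCAGCAGGTGGCgacaaagca
Border after Vmn1r223: tgcctgcatCCAGTAGAGGGCtaatatatc

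A match is a description of letters, and binding was not analysed here. A coding gene that is no member started within 10 kb of 9 of the 19 edge boundaries, among them Kbtbd2, Mad2l1, Epn1, Mzf1 and Ceacam20, and of 0 of the 12 inner boundaries, against 34.2% of all boundaries. Inner boundaries lie by definition within runs of Vmn1r genes, so their count is not a result about them.

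Genes of vomeronasal signalling and identity are given for context as a list of 11. Of these, 4 started within 10 kb of a boundary, where 16.4% of all genes did. Gnao1, the G protein alpha subunit of basal vomeronasal neurons, started 0.035 kb from a boundary of score 0.425. Gnai2, the alpha subunit used by the apical neurons that express Vmn1r receptors, started 100.4 kb from one of 1.71. Gng8, a gamma subunit of these neurons, started 28.2 kb away, and Trpc2, their cation channel, 172 kb. The calcium-activated chloride channel genes Ano1 and Ano2 started 23.0 and 70.4 kb away. Among transcription factors, Bcl11b started 6.40 kb from a strong boundary of 1.85, Atf5 1.66 kb from one of 0.490 and Tfap2e, a factor of basal neurons, 3.76 kb from one of 0.241. Meis2, found in apical neurons, started 34.2 kb away. Omp, the marker of mature sensory neurons, started 44.5 kb away. The distances of these 11 ranged from 0.035 to 172 kb. Beyond 500 kb lay 2.19% of all genes, so the lack of such distances among 11 genes is not a result about them.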

How the data were processed

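Per the series' design text, the authors merged the in situ Hi-C contacts of both replicates and called boundaries from the merged matrix. The build is GRCm38, per the submitters' processing notes. Caller, settings and read depth: not given in the sources used here. In the deposited list every 5 kb boundary has a class and a score. The score comes from the authors and served only to describe, rank or filter boundaries.

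Distances ran from the TSS of each GENCODE M21 gene model to the nearest base of the nearest interval, 0 inside it. Sequence came from the GRCm38.p6 FASTA of RefSeq, and upstream windows on chromosome 18 were left out. Coding identity was computed with edlib 1.3.9.post1 from the edit distance, taken as a share of the longer sequence. Uniqueness was computed with numba 0.67.0 on 1 in 32 of the 50-base words, and shares carry Wilson intervals (scipy 1.17.1). Medians carry order-statistic intervals. The code for distances, domains and arrays was tested on simulated data.

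Named genes were all members within 10 kb, the 5 farthest, the ends of each array, members outside arrays, neighbours of inner boundaries and the signalling list. Other genes were named after their values were seen. Members and lists were chosen with earlier results of these data known. Cells were FVB/NTac, and strain variants were not examined. Alternatives were window, boundary class, score, merging, chromosome 7, repeated bins, gene position, members, array gap and array size. Contact matrices, insulation and compartment tracks were not analysed here.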

Additional observations from a re-analysis of the deposited data

How the results depend on the processing

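Of 54 alternative results, 34 stayed within the interval set around the value reported and 20 moved. For the count of arrays with no inner boundary, that interval was a fixed band of 2.67 to 6 arrays and not an error. Other windows were set against the interval of the 10 kb share, so their labels say little. The share of Vmn1r TSS near a boundary was 0.478% with a window of 0 kb, 9.09% with 25 kb and 18.2% with 50 kb, where all genes gave 5.07%, 27.8% and 46.3%. It was 0.478% with strong boundaries alone and 0.478% with boundaries at or above the median score, against 10.6% and 10.2% of all genes. The median distance was 345 kb with strong boundaries alone and 424 kb with those at or above the median score (all genes 99.0 and 105 kb). It was 121 kb without chromosome 7, 111 kb without mostly repeated bins and 112 kb without the fullest domain. The median domain was 1600 kb in both score settings (all genes 485 and 520 kb), 595 kb without chromosome 7 and 560 kb without repeated bins or without the fullest domain. Boundary density inside arrays was 0.282 per Mb with strong boundaries alone and 1.79 per Mb without chromosome 7. Arrays with no inner boundary numbered 7 with a gap of 200 kb, 2 with a gap of 1 Mb, 1 without chromosome 7 and 7 with strong boundaries alone. In each of these settings that was also computed over all genes, the Vmn1r share stayed lower and the distance longer than theirs. The settings without the fullest domain, with the coding start in place of the TSS and with receptor-like genes added were chosen after seeing the data. Merging within 50 kb removed 0 boundaries, since the closest were 55 kb apart. No paired analysis was possible because both replicates form 1 group and boundaries were called on their combined contacts, and for the same reason no replicate could be left out. Depth is unknown, so which boundaries in repeated sequence could have been called is unknown too.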
